A study of Mus musculus with 2 samples.

Results

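A set of 8 stretches of 100 kb on 8 autosomes, candidate differences in DNA copy number between 2 sequencing libraries, was examined with the 500 kb on each side of each. Their members are the 880 bins of 10 kb in these windows, 80 in the blocks and 800 in the flanks, of 247239 autosomal bins of that size up to the last read. Of the blocks, 7 were chosen because their counts differed between the libraries by more than counting error allows for all 100 kb bins compared, and the eighth, on chromosome 5, because it holds a narrow pile-up of reads that differed. The block ratios are therefore descriptions. Repeated reads and strands took no part in the choice. The flanks, where deep enough, were held to the same limit in 100 kb bins and did not pass it.

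The reads come from chromatin immunoprecipitation and sequencing (ChIP-seq) of primary osteoblasts, the cells that lay down bone, from 129sv mice, with an antibody against Tnni2, the inhibitory troponin subunit of fast skeletal muscle. The mutant library comes from mice homozygous for the Tnni2 del175k allele and the second library from littermates of wild type. An n = 3 stands in the series text, and no label says whether animals were pooled, so each genotype has 1 library, no value has a replicate check, and intervals cover counting error in these 2 libraries only. The libraries held 3003795 (mutant) and 2920353 (wild type) distinct read positions, a position being a chromosome, a 5′ end and a strand. The cell type cannot be checked from these reads, and no input library was analysed here.

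Copy number variants are stretches of chromosome present in more or fewer copies in some individuals or strains than in others, and they often lie in or beside segmental duplications, where copies can be gained or lost by unequal exchange. Most reads of a ChIP library with little enrichment come from genomic DNA at large, so their density follows the number of copies, together with how much of the sequence can be aligned to and how open the chromatin is. A stretch held in more copies by the cells than by the reference genome collects more reads per reference base, and a deleted stretch collects fewer.

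Without its fullest 1 kb bin, the ratio of 7 of the 8 blocks still had an interval that excluded 1, and that of 1 block did not. The counts that chose 7 of the blocks also gave these intervals, so this describes how the counts are spread and is no test. Copy number itself was not measured. Ratios below are mutant over wild type, scaled to the distinct positions of chromosomes 1 to 19, with exact 95% intervals. In 3 windows (chromosomes 4, 7 and 8) the wild-type library stood above its surroundings and the mutant library was lower. In 2 (chromosomes 6 and 9) a broad plateau stood higher in the mutant library. On chromosome 3 both libraries rose above their surroundings, the mutant library further. On chromosome 15 the wild-type library dropped below its surroundings and the mutant library stood above its own. On chromosome 5 the difference sat in about 11 kb of a sparsely covered stretch, with a fitted range of 2 to 15 kb in 1 kb bins. It rested on a pile-up of reads, which does not bear out the name copy number block.

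**Figure D1:**
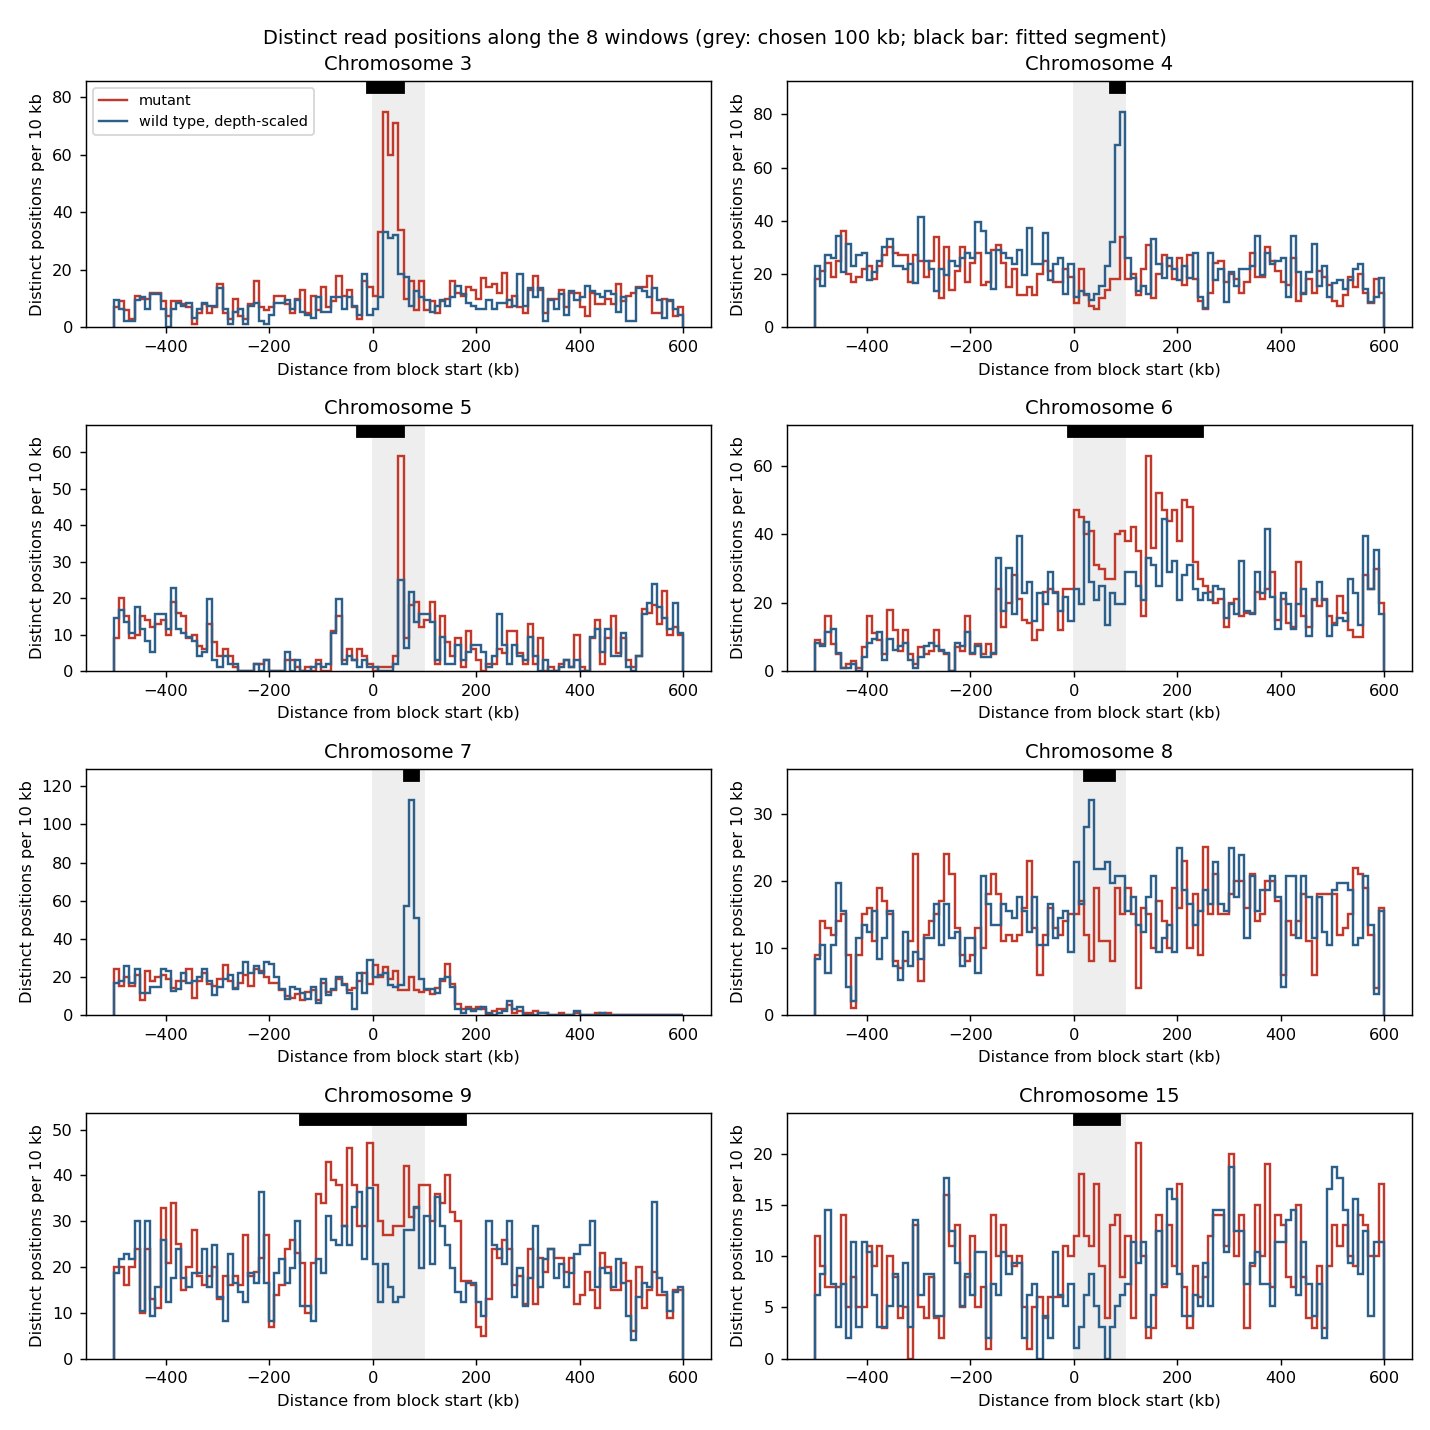
Distinct positions per 10 kb (vertical axis) against distance from the block start in kb (horizontal axis) in the 8 windows, for the mutant library (red) and the depth-scaled wild-type library (blue). The grey band is the chosen 100 kb and the black bar the fitted segment; chromosome 7 shows 109 unscaled wild-type positions in 1 bin against 20 mutant positions, and chromosome 3 shows both libraries raised.

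Edges were placed by fitting, to the split of counts between the libraries, 1 ratio inside a segment and 1 outside it over the 110 bins of a window. The best segment is given with the range of starts and ends whose log-likelihood lay within 2 units of it. Because the segment was placed where the libraries differ most, its values describe it and are no test. The same holds for counts of segment bins in which 1 library is higher. Of the 500 flank bins with 20 or more positions, 244 had a mutant to wild-type ratio above 1. Positions are those of the deposited reads, counted from 1, with the genome build uncertain, and no genes are named because no annotation of that build was used. The level of a library in a segment is its density there divided by its own density in the 100 kb on each side of the segment.

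The block with the lowest segment ratio was on chromosome 7. The fitted segment ran from 38960001 to 38990000, 30 kb long, and no other edge in 10 kb bins came within the support range. Along its 3 bins the mutant library held 13, 20 and 13 positions, where the wild type had 55, 109 and 49. The wild-type library was thus several times fuller in each bin of a segment that was placed where the libraries differ most. The segment totals of 46 and 213 gave a ratio of 0.208 (0.148 to 0.287). The wild-type level was 5.07 (4.22 to 6.08) and the mutant level 0.958 (0.688 to 1.31). Against the whole rest of the window, whose right side is nearly empty, these were 7.05 (6.06 to 8.18) and 1.47 (1.07 to 1.97). In bins of 1 kb the segment ran from 38960001 to 38988000, with a wild-type level of 5.30 (4.41 to 6.36). The other 7 bins of the block held between 12 and 26 mutant and between 14 and 21 wild-type positions, so the 100 kb ratio of 0.529 (0.440 to 0.636) averages a steep segment with bins that barely differed. To the right, from 39060001 to 39500000, reads thinned out in both libraries, to 49 mutant and 39 wild-type positions in 440 kb.

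On chromosome 4 the difference lay at the right end of the block. The segment ran from 140270001 to 140300000, with a start anywhere from 140230001 to 140280001 and an end from 140300000 to 140310000 supported. Its bins held 18, 18 and 34 mutant positions, against 31, 66 and 78 from the wild type. The ratio was 0.386 (0.288 to 0.511), and within the segment the last 20 kb had 52 and 144 positions, a ratio of 0.348 (0.248 to 0.481), a stretch picked after its values were seen. The wild-type level was 3.27 (2.71 to 3.93). The mutant level was 1.36 (1.04 to 1.76) against the 100 kb on each side, 1.20 (0.934 to 1.53) against the whole rest of the window, and 1.28 (0.959 to 1.68) with edges set in 1 kb bins, from 140276001 to 140303000. The mutant library thus lay slightly above the 100 kb on each side, while the intervals of the other measures included 1. The fine right edge fell 3 kb beyond the chosen block. The first 7 bins of the block were sparse in both libraries, with 7 to 22 mutant and 10 to 22 wild-type positions.

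The block on chromosome 8 was shallower. Its segment ran from 8520001 to 8580000, 60 kb, with starts from 8500001, ends up to 8600000 and lengths of 60 to 80 kb supported. The 6 bins held 12, 8, 19, 11, 11 and 8 mutant positions, against 27, 31, 21, 21, 22 and 19 from the wild type. Every one of the 6 bins was lower in the mutant library, although 1 mutant bin reached the lowest wild-type value. The totals of 69 and 141 gave a ratio of 0.472 (0.348 to 0.633). The wild-type level was 1.60 (1.30 to 1.96) and the mutant level 0.830 (0.628 to 1.08), so here the ratio was made up of a raised wild-type density and a mutant density at or slightly under its surroundings. In 1 kb bins the right edge was supported as far out as 8660000, so its place is poorly fixed at this depth.

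The 2 broad blocks were on chromosomes 6 and 9, where the difference ran well past the chosen 100 kb. On chromosome 6 the segment ran from 90390001 to 90650000, 260 kb, with lengths of 240 to 290 kb supported. There 1008 mutant positions stood against 648 of the wild type, which gives a ratio of 1.499 (1.36 to 1.66). Over its 26 bins the mutant library ranged from 16 to 63 positions with a median of 40, and the wild-type library from 13 to 43 with a median of 24. The mutant library was higher in 24 of the 26 bins, though the ranges overlap. The mutant level was 2.10 (1.86 to 2.37) and the wild-type level 1.16 (1.02 to 1.31).

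The window on chromosome 6 held a second edge that both libraries shared. From 89900001 to 90250000 the mutant library held 7.34 and the wild-type library 5.83 positions per 10 kb, and from 90250001 to 90400000 they held 19.1 and 22.4. Density thus rose in both libraries 150 kb before the block, and in that stretch the mutant library was the lower one, with a ratio of 0.820 (0.698 to 0.963). At the start of the segment the mutant density then rose again while the wild-type density changed little. Within the segment, the 100 kb from 90540001 held 457 and 288 positions, a ratio of 1.53 (1.32 to 1.78). These stretches were picked after their values were seen.

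On chromosome 9 the segment ran from 46660001 to 46980000, 320 kb, the longest of the 8, with lengths of 290 to 370 kb supported. It held 1041 mutant and 702 wild-type positions, a ratio of 1.43 (1.30 to 1.58). The 32 bins ranged from 10 to 47 positions (median 32.5) for the mutant and from 8 to 36 (median 21) for the wild type, and the mutant library was higher in 28 of them. The mutant level was 1.78 (1.58 to 2.01). The wild-type level was 1.13, with an interval from just under 1 to 1.29.

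Densities varied along the segment on chromosome 9 in both libraries. From 46690001 to 46800000 the libraries held 37.1 (mutant) and 26.7 (wild type) positions per 10 kb, and from 46860001 to 46970000 they held 34.9 and 24.9. Between these stretches, in the 60 kb from 46800001, the mutant library held 30.0 and the wild-type library 15.3. The wild-type density there fell to below its neighbours and the ratio was 1.89 (1.46 to 2.45), against 1.34 (1.15 to 1.56) to the left and 1.35 (1.15 to 1.58) to the right. The chosen 100 kb contained this dip, and the choice used the same contrast. The intervals of the ratios overlap, and whether the excess was uneven was not tested. The dip was singled out after its values were seen.

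On chromosome 3 both libraries were raised. The segment ran from 25390001 to 25460000, 70 kb, with starts up to 25410001 and ends from 25450000 supported. Its 7 bins held 14, 11, 33, 75, 60, 71 and 34 mutant positions, against 4, 6, 10, 32, 30, 31 and 18 from the wild type. The profile was similar in shape in both libraries, fullest in the 3 bins from 25420001, where the totals were 206 and 93. The first 2 bins of both libraries and the third of the wild type lay near the density of the surroundings. The segment ratio was 2.19 (1.78 to 2.71). The mutant level was 4.11 (3.43 to 4.94) and the wild-type level 2.10 (1.67 to 2.65), so neither library ran on at the density of its surroundings. The window around it also lay above 1, with a ratio of 1.18 (1.07 to 1.30) outside the segment, and relative to that the segment ratio was 1.86.

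Chromosome 15 carried the largest of the 8 ratios over 100 kb, and it came with the fewest positions. The segment ran from 6000001 to 6090000, 90 kb, with lengths of 80 to 140 kb supported. Its 9 bins held 12, 18, 12, 11, 17, 9, 4, 13 and 14 mutant positions, against 1, 3, 6, 8, 5, 3, 0, 3 and 5 from the wild type. The mutant library was higher in all 9. The totals of 110 and 34 gave a ratio of 3.12 (2.11 to 4.73). The wild-type level was 0.552 (0.367 to 0.808), the only level of the 7 block-like segments whose interval lay below 1, and the mutant level was 1.59 (1.23 to 2.04). Wild-type reads were reduced but not missing, with 40 positions in the 100 kb block where the flanks held 8.28 per 10 kb. The mutant level is measured against a sparse left side, with 60 positions in 100 kb, and over the whole rest of the window it was 1.37 (1.11 to 1.67).

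**Figure D2:**
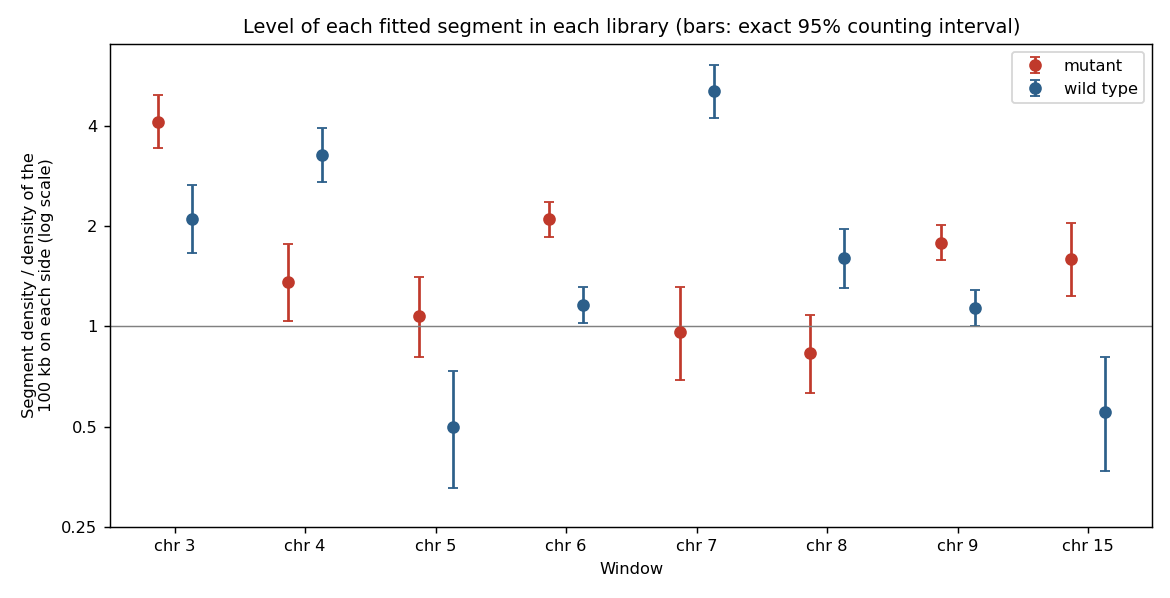
Level of each fitted segment (vertical axis, log scale), which is the density of positions in the segment over that of the 100 kb on each side, per window (horizontal axis) in the mutant (red) and wild-type (blue) libraries, with exact 95% counting intervals. The mutant points lie near 1 on chromosomes 7 and 8 where the wild-type points are at 5.07 and 1.60. Both points lie above 1 on chromosome 3. On chromosome 15 the wild-type point lies at 0.552 and the mutant point at 1.59.

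The place on chromosome 5 differed in kind. Its single fullest 1 kb bin, from 105357001 to 105358000, held 36 mutant and 7 wild-type positions, which was 29.0% and 8.54% of all positions in the block. The reads there were not copies of a few fragments, since the 36 mutant positions carried 43 reads and the 7 wild-type positions carried 7. Without that bin the block held 88 and 75 positions, a ratio of 1.13 whose interval (0.822 to 1.56) included 1. With 1 kb bins the segment ran from 105356001 to 105367000, 11 kb, with lengths from 2 to 15 kb supported, and held 59 and 14 positions. That segment was placed where the libraries differ most, so whether the difference reached beyond the fullest bin was not tested. In 10 kb bins the fit was loose, with starts from 105240001 to 105620001 and a best length of 90 kb that took in nearly empty bins. On its left, from 105300001 to 105350000, the block held 7 mutant and 3 wild-type positions in 50 kb, too few to compare (ratio 2.25, 0.513 to 13.5). On its right, from 105360001, it held 58 and 55 in 40 kb, a ratio of 1.02 (0.691 to 1.498). The stretch on the right overlaps the last part of the 1 kb fit. Of the 100 bins of 1 kb in this block 47 were empty in both libraries, against 2 to 11 in the other blocks except that on chromosome 15, where 32 were.

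In none of the 7 other blocks did a pile-up of this kind carry the difference. Their fullest 1 kb bins held between 1.63% and 6.30% of a library's positions in the block. Without them the block ratios were 1.86 on chromosome 3, 0.556 on chromosome 4, 1.62 on chromosome 6, 0.553 on chromosome 7, 0.587 on chromosome 8, 1.59 on chromosome 9 and 2.87 on chromosome 15, each on the same side of 1 with an interval that excluded it. These blocks were chosen on the same counts, so the intervals are descriptions. The fullest bins themselves were small. The largest on chromosome 7, from 38974001 to 38975000, held 4 mutant and 21 wild-type positions, and that on chromosome 3, from 25420001 to 25421000, held 12 and 7.

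**Figure D3:**
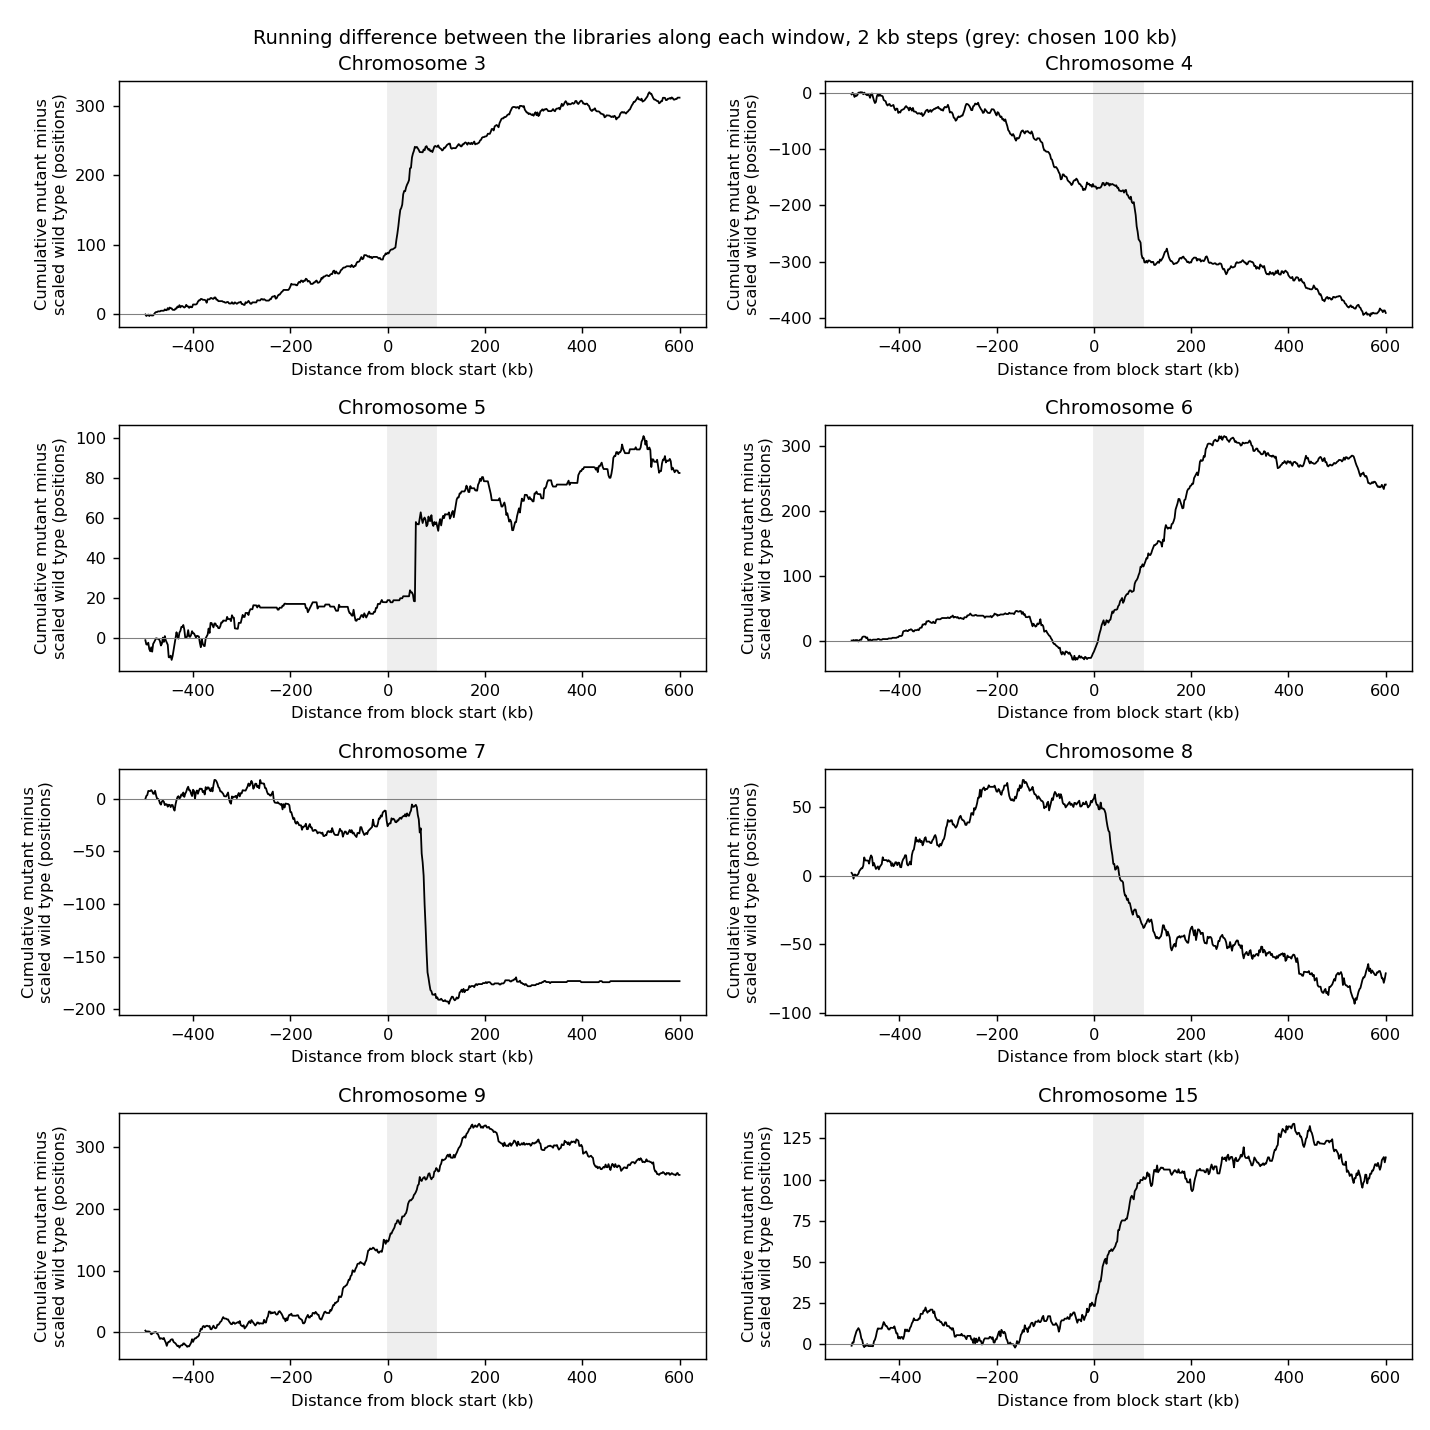
Running sum of mutant minus depth-scaled wild-type positions (vertical axis) in 2 kb steps against distance from the block start in kb (horizontal axis) for the 8 windows, with the chosen 100 kb in grey. A steady slope marks a stretch where the libraries differ evenly, as over 260 kb on chromosome 6 and 30 kb on chromosome 7, and the single jump on chromosome 5 marks the pile-up.

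Across the 8 windows, fitted lengths in 10 kb bins ran from 30 kb on chromosomes 4 and 7 to 320 kb on chromosome 9. The segments lay wholly inside the chosen 100 kb on chromosomes 4, 7, 8 and 15 and passed its edges on chromosomes 3, 5, 6 and 9. By intervals against the 100 kb on each side, the mutant library stood above its surroundings in 5 of the 8 segments, below in 0 and with an interval that included 1 in 3. The wild-type library stood above in 5, below in 2 and included 1 in 1. With edges set in 1 kb bins the mutant counts were the same, but chromosomes 4 and 5 changed places in them. The mutant level on chromosome 4 went to 1.28 (0.959 to 1.68). That on chromosome 5 went from 1.07 (0.806 to 1.41) to 7.20 (5.23 to 9.80). With these edges the wild-type library stood above in 5, below in 1 and included 1 in 2. The wild-type level on chromosome 5 then went from 0.497 (0.328 to 0.734) to 2.004 (1.07 to 3.49), and that on chromosome 6 to 1.11 (0.985 to 1.26). Within the segments few bins departed from the common ratio: 1 of 26 bins on chromosome 6, 1 of 32 on chromosome 9 and 0 in the other 6 segments had a 95% interval that left out the segment's ratio. In windows of this depth a single 10 kb bin has a wide interval, so only large departures could be seen.

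**Figure D4:**
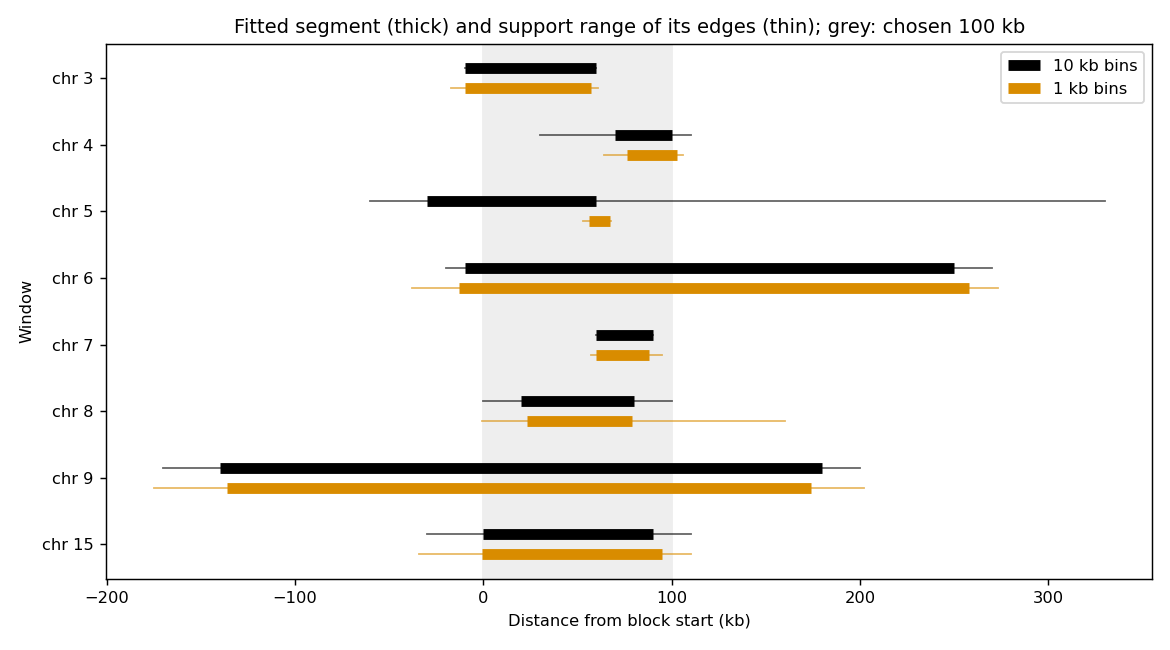
Fitted segments (thick bars) and the outer support limits of their edges (thin lines) against distance from the block start in kb (horizontal axis) for each window (vertical axis), with 10 kb bins in black and 1 kb bins in orange. Both bin sizes place the segments close together except on chromosome 5, where the length goes from 90 kb to 11 kb. In 1 kb bins the lengths on chromosomes 7 (28 kb) and 8 (56 kb) lay just outside the 10 kb support range. On chromosome 8 the right edge was then supported as far out as 8660000.

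Single bins in the blocks showed the spread behind these sums. A bin was compared where it held 20 or more positions in the libraries together, which 62 of the 80 block bins did, and 23 of these were 2-fold or more apart, 14 higher and 9 lower for the mutant. Of all 148261 autosomal bins of that depth 8.41% were, 4.45% higher and 3.96% lower. The choice of blocks used this contrast, so nothing is read from the difference. On chromosome 15 only 2 of 10 bins reached 20 positions, and on chromosome 5 only 4. The lowest bin ratio was 0.177 (0.104 to 0.287) on chromosome 7 from 38970001, and the highest was 5.78 (1.69 to 30.7) on chromosome 15 from 6010001, where the wild-type library held 3 positions. The highest bin ratios elsewhere were 3.18 (1.53 to 7.24) on chromosome 3 from 25410001, 2.41 (1.20 to 5.17) on chromosome 9 from 46810001, 2.37 (1.45 to 3.98) on chromosome 5 from 105350001 and 2.28 (1.31 to 4.13) on chromosome 6 from 90410001. The lowest were 0.249 (0.099 to 0.553) on chromosome 8 from 8530001 and 0.263 (0.147 to 0.448) on chromosome 4 from 140280001. On chromosome 15 both bins compared were far above 1, the lower of them at 3.28 (1.16 to 11.4). Each of the other 7 blocks also held bins on the other side of 1 or near it, such as 0.918 (0.580 to 1.45) on chromosome 6 from 90420001 and 0.994 (0.592 to 1.67) on chromosome 9 from 46880001. No bin of the 8 windows was empty in 1 library while it held 10 or more positions in the other.

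The blocks were chosen on their own counts, so the values of the flanks bear on how far the differences reach. The flanks are not free of the choice, since 100 kb stretches that passed the limit would not be flanks. Of 500 flank bins of 10 kb with 20 or more positions, 40 were 2-fold or more apart, 20 in each direction. That is 8.0%, near the 8.41% of all autosomal bins, but the share differed between windows, from 1.96% on chromosome 7 (1 of 51) to 15.6% on chromosome 3 (5 of 32) and 16.2% on chromosome 15 (6 of 37). The last 2 windows are sparse, with 32 and 37 of 100 flank bins deep enough to compare. The window on chromosome 5 was as sparse, with 30, and its share was 3.33% (1 of 30). The part of depth in these shares was not tested. The only run of 2 adjacent flank bins past 2-fold in the same direction lay on chromosome 6 from 90930001 to 90950000, with 22 mutant and 48 wild-type positions. Its ratio was 0.442 (0.254 to 0.746), opposite in direction to the block on its left.

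In steps of 100 kb, 72 of the 80 flank steps held 100 or more positions. Of these, 0 were 1.5-fold or more apart, where 2.16% of the 22775 autosomal bins of this size and depth were. These steps did not pass the limit that chose 7 of the blocks, so the 0 is partly set by the choice. The 95% interval of the ratio excluded 1 in 10 of the 72, 8 above and 2 below, against 10.3% of all such autosomal bins (5.57% above and 4.77% below). Of these 10, 5 were next to a block. On chromosome 6 the step after the block held 420 mutant and 288 wild-type positions, a ratio of 1.41 (1.21 to 1.64), and the next one held 297 and 224, a ratio of 1.28 (1.07 to 1.53). On chromosome 9 the steps on both sides were raised alike, at 1.31 (1.12 to 1.54) on the left and 1.31 (1.10 to 1.57) on the right. These are parts of the 2 broad segments outside the chosen 100 kb. On chromosome 3 the step before the block had a ratio of 1.37 (1.01 to 1.85), and on chromosome 4 the step before it had 0.738 (0.605 to 0.900). On chromosomes 7, 8 and 15 the intervals of both adjacent steps included 1, from 0.944 (0.704 to 1.27) after the block on chromosome 15 to 1.18 (0.796 to 1.76) before it. On chromosome 5 the step after the block had a ratio of 1.30 (0.935 to 1.82), and the one before held too few positions to be compared.

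**Figure D5:**
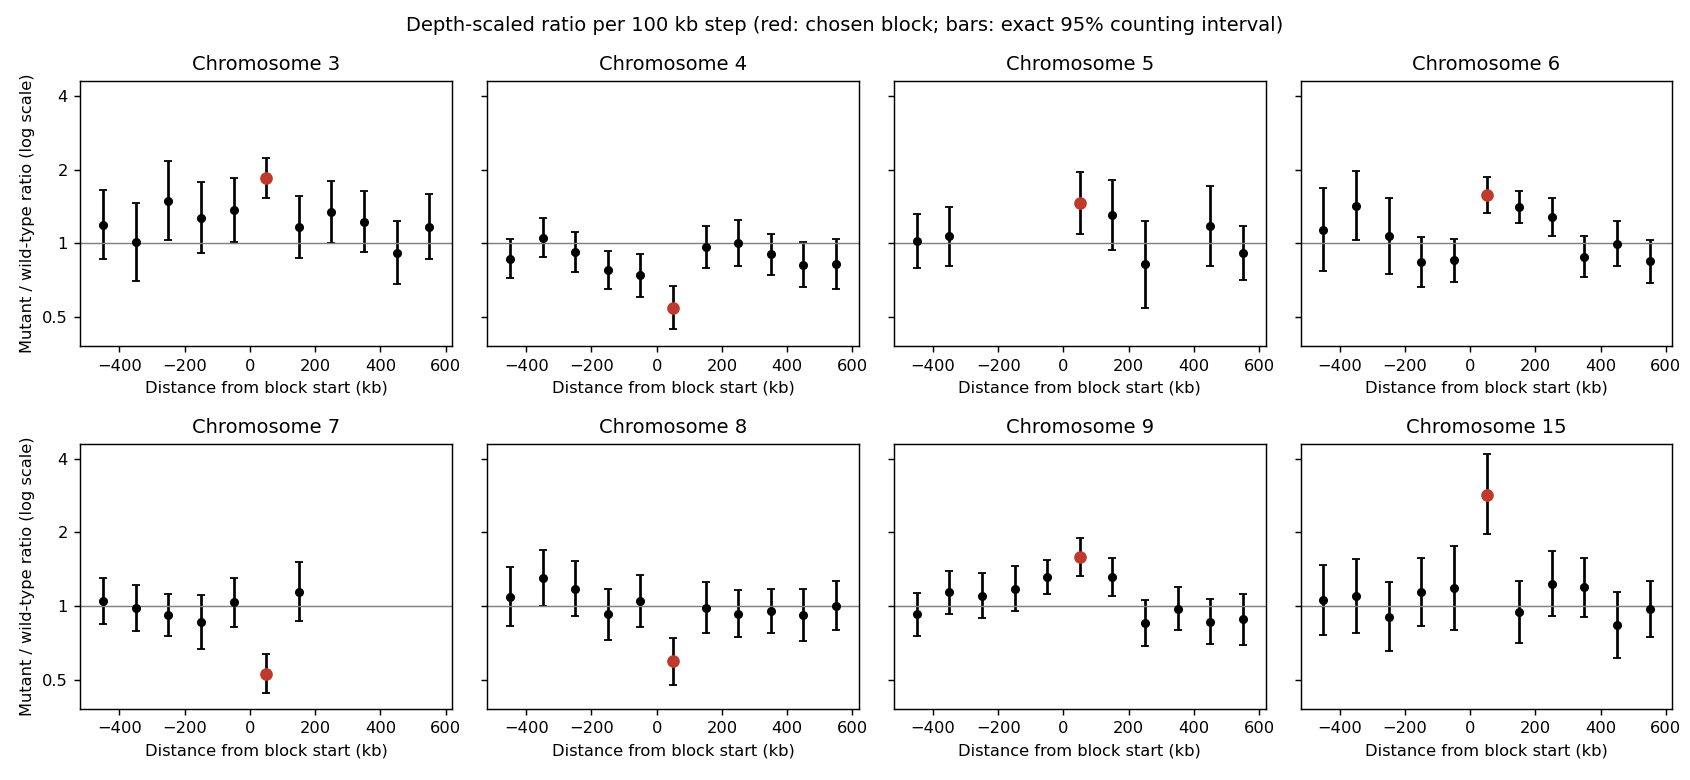
Depth-scaled mutant to wild-type ratio (vertical axis, log scale) of each 100 kb step with 100 or more positions against distance from the block start in kb (horizontal axis), with exact 95% counting intervals and the chosen block in red. The ratio returns to about 1 in the next step on chromosomes 7, 8 and 15, and stays above 1 to the right of the block on chromosome 6 and on both sides of that on chromosome 9.

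Over the full 500 kb, the flank ratios ran from 0.868 (0.799 to 0.942) left of the block on chromosome 4 to 1.26 (1.09 to 1.46) left of that on chromosome 3. On these 2 chromosomes both flanks leaned the way of the block, with 0.903 (0.823 to 0.990) to the right on chromosome 4 and 1.16 (1.02 to 1.32) to the right on chromosome 3. As densities, the same counts were 9.53 mutant and 7.65 wild-type positions per 10 kb on chromosome 3 and 19.9 and 21.8 on chromosome 4. Why these flanks leaned was not tested. Scaled to their own flanks, the block ratios were 1.54 on chromosome 3 and 0.618 on chromosome 4. The intervals of both flanks included 1 on chromosomes 5, 7, 8 and 15.

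Repeated reads and strands, which the choice did not use, lay close together in blocks and flanks when summed over the 8 windows. Reads beyond the first at a position, which can be copies made in amplification, made up 7.89% of mutant block reads (6.72 to 9.20%) and 8.26% of mutant flank reads. For the wild type they made up 10.5% (9.10 to 12.1%) and 11.2%. In all 16 pairs of block and library the flank share lay inside the interval of the block share. The steep segment on chromosome 7 held 246 wild-type reads at 213 positions, with at most 3 reads at any of them, so its excess was spread over many fragments. The plus strand held 51.0% (48.6 to 53.4%) of mutant and 50.9% (48.4 to 53.4%) of wild-type block positions, and the interval of each of the 16 block shares included 50%. The flanks held 50.1% in each library. The lowest block share was 43.4% (36.8 to 50.1%) in the wild-type library on chromosome 6, where the mutant share was 52.8% (47.6 to 58.0%). The highest was 58.5% (49.7 to 66.9%) in the mutant library on chromosome 8. Their flanks held 50.4% and 48.5%, outside the block intervals. The wild-type library on chromosome 7 also differed, with 55.2% (49.7 to 60.6%) in the block and 48.3% in the flanks.

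The limit that chose 7 of the blocks ran close by some of them. It widened each interval for the 23586 bins compared on chromosomes 1 to 19 and X, and 0.0746% of the autosomal bins passed it, 0.0263% above 1 and 0.0483% below. The block on chromosome 8 passed narrowly, with a widened interval of 0.347 to 0.996, and that on chromosome 9 had 1.04 to 2.47. Just outside lay the bin that follows the block on chromosome 6, from 90500001, with 0.978 to 2.04, and a bin on chromosome 9 from 37900001 with 102 and 44 positions and 0.970 to 5.69. The block on chromosome 5 was far from it, at 0.742 to 2.96 with 124 and 82 positions. With 1 library for each genotype, differences between the animals used and differences between the genotypes cannot be told apart at any of these places.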

How the data were processed

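Each deposited file lists 1 aligned read of 36 bp per line, with the score deposited by the authors at 255 throughout and not used. Bowtie made the alignments, per the submitters' processing notes, against what the series text calls mouse reference 8. Its version, and whether repeated or multiply placed reads were filtered, is not given in the sources used here. Reads on chromosome 7 end as far out as 152524453, so the build is uncertain, and neither genes nor sequence were read by coordinate. Reads were reduced to distinct positions and scaled to their number on chromosomes 1 to 19 (2927228 mutant, 2821498 wild type). Intervals are exact (Clopper-Pearson, 95%) on the split of counts. Segments were fitted by binomial likelihood, up to 600 kb long. The fit was also run on simulated data, with the outcome not reported here. No test of genotype was made.

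The blocks, windows and comparisons were chosen with earlier results of these data known. The text names all blocks, their segments, the extreme 10 kb bins with 20 or more positions, the fullest 1 kb bins and flank runs; other stretches were chosen after their values were seen. Counting and fitting used numpy 2.4.6, pandas 2.3.3 and scipy 1.17.1 under Python 3.11.15, and plots matplotlib 3.10.9.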

Additional observations from a re-analysis of the deposited data

How the results depend on the processing

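The 8 block ratios were recomputed with every aligned read, with scaling to the median 100 kb bin or to the block's own flanks, on each strand alone, without the 3 fullest 1 kb bins, and with 5′ ends shifted by 100 bp. Of the 8, 7 kept their side of 1 in all of these. The block on chromosome 5 went from 1.46 to 0.9499 without its 3 fullest bins. That on chromosome 6 was 1.92 on the plus strand and 1.31 on the minus strand, both outside its interval. Flank bins past the fold numbered 40, and became 142 at 1.5-fold (29.2% of all autosomal bins pass there), 72 with 10 or more positions (12.6%) and 14 with 40 or more (4.04%); these settings change the fold or the bins compared by construction. Segment lengths left their support range on chromosome 7 (35 kb with 5 kb bins, 40 kb with 20 kb bins, 28 kb with 1 kb bins) and chromosome 8 (56 kb with 1 kb bins). The 1 kb bins were added after the data were seen. Leaving out a library would leave a genotype empty. No paired analysis was possible because each genotype has 1 library. Depth limits edges: a 10 kb bin held on average 12.5 mutant and 12.04 wild-type positions over bins with any read.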

Other observations

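Few exact positions recurred between the libraries. Of the 1739 mutant positions in the 8 blocks, 6 (0.345%, exact 95% interval 0.127 to 0.749%) had a wild-type read with the same 5′ end and strand, and of the 10920 in the flanks 21 did (0.192%, 0.119 to 0.294%). The block on chromosome 4 held 2 of the 6, both in its fitted segment. The highest number of reads at 1 position in the blocks was 4 for the mutant and 7 for the wild type.

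Against the mean 10 kb bin of each library over the autosomes, taken over bins with any read, the segments spanned a wide range of density. The wild-type library held 5.89 times its mean on chromosome 7, 4.84 times on chromosome 4, 1.95 times on chromosome 8 and 0.314 times on chromosome 15. The mutant library held 3.41 times its mean on chromosome 3, 3.10 times on chromosome 6, 2.60 times on chromosome 9 and 0.978 times on chromosome 15. On chromosome 15 the mutant library was thus near its own mean, although its level against the 100 kb on each side was 1.59 (1.23 to 2.04).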
